A study of Arabidopsis thaliana with 6 samples.

Results

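Expansins and xyloglucan endotransglucosylase/hydrolases (XTHs) are the wall-loosening gene families described here in leaves of Arabidopsis thaliana. The 46 genes, 25 expansins and 21 XTH genes, were taken by locus from the 26402 genes of the deposited table, and all 46 were found in it. They cover part of each family. The genes were chosen by family with the RPKM values of both columns in view, so their levels and ratios are given as a description. RNA of whole leaves was sequenced from wild-type Col-0 plants (ecotype Columbia) that had grown at low CO2 (100 ppm) or at normal CO2 (380 ppm). Each group had 3 samples, from plants kept in soil for 4 weeks at 21 °C, in 70% relative humidity, with 16 h of light and 8 h of night. The table gives 1 column of RPKM values (reads scaled to coding length and to sequencing depth) for each CO2 level and none for a replicate. The spread between replicates is therefore unknown for every difference given, and the CO2 effect could not be tested.

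A growing plant cell is held in by cellulose microfibrils that are tethered by xyloglucan and other matrix polymers. Alpha-expansins (EXPA) and beta-expansins (EXPB) loosen this network in acidic walls without cutting it. The expansin family also holds the expansin-like genes EXLA and EXLB. XTH enzymes cut a xyloglucan chain and join the new end to another chain, or, in a few members, to water. Both families are known as targets of growth hormones, light and touch, and both are large, with many members restricted to roots, pollen or other organs.

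The values come from 21887516 reads at low CO2 and 25429325 reads at normal CO2, as recovered from the RPKM values. One read on a 1 kb coding sequence was worth 0.0457 RPKM at low CO2 and 0.0393 RPKM at normal CO2. All 41 members above 0 gave whole reads in both columns, and the other 5 were at 0 in both. Ratios are low over normal CO2, with the 95% Clopper-Pearson interval of the reads in brackets, which covers counting error only. A gene was counted when its mean over both columns was at least 1 RPKM, and it was called 2-fold different from its log2(RPKM + 1) values. That scale makes differences of low genes look smaller.

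More genes of both families were higher than lower at low CO2, and the highest level in each column belonged to a different gene. Among 33 counted members, 13 passed 2-fold upward at low CO2, 4 passed it downward and 16 lay between. Over all 16563 counted genes the same calls took in 6.07% upward and 11.1% downward. These shares stand beside the members' counts as background, and nothing is read from the comparison because the members were picked with this contrast in view. The median log2 ratio was 0.62 for the 15 counted expansins and 0.34 for the 18 counted XTH genes, beside -0.06 for all counted genes. The alpha-expansin EXPA1 had the largest ratio among the counted members. XTH31, which was counted only through its level at normal CO2, had the smallest. In RNA from whole leaves, fewer cells of a type and less RNA per cell cannot be told apart.

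**Figure D1:**
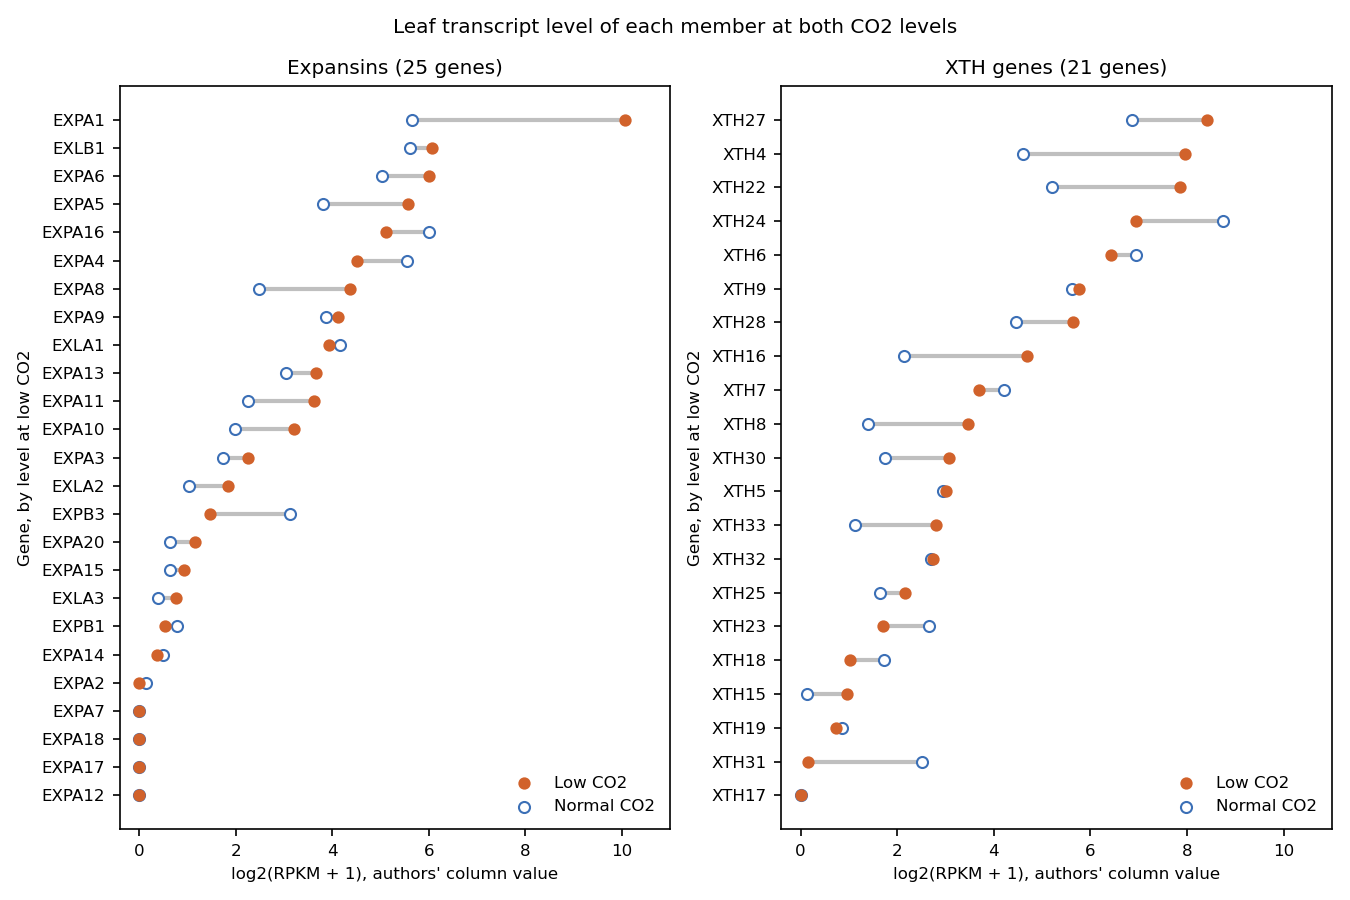
Level of each member on the log2(RPKM + 1) scale at low CO2 (filled orange) and at normal CO2 (open blue), with expansins on the left and XTH genes on the right, ordered by the level at low CO2. Each point is the authors' value for a group, with no error bar because no replicate values are given. EXPA1 stands apart at 1067 RPKM at low CO2 and 48.97 RPKM at normal CO2, whereas XTH24 lies at 121.8 RPKM at low CO2 and 429.6 RPKM at normal CO2.

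Alpha-expansins, the largest branch of the family, held 19 of the members, of which 11 were counted. EXPA1 (AT1G69530), studied in guard cells and in leaf growth, stood at 1067 RPKM at low CO2 and 48.97 RPKM at normal CO2. Its ratio was 21.8 (20.4 to 23.3), from 17514 reads at low CO2 and 934 at normal CO2. By level EXPA1 was the 121st of the 26402 listed genes at low CO2 and the 4177th at normal CO2, and its log2 ratio of 4.42 was the 16th from the top among the counted genes. The next highest expansin value was 65.6 RPKM, that of EXLB1 at low CO2.

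The other alpha-expansins that were at least 2-fold higher had levels far below that of EXPA1. EXPA5 (AT3G29030), linked to growth under brassinosteroids, was at 46.3 RPKM at low CO2 and 13.0 RPKM at normal CO2, a ratio of 3.56 (3.09 to 4.12). EXPA8 (AT2G40610) was at 19.8 RPKM at low CO2 and 4.56 RPKM at normal CO2, a ratio of 4.34 (3.42 to 5.56). EXPA10 (AT1G26770), whose altered expression is known to change the size of leaves and petioles, was at 8.23 RPKM at low CO2 and 2.99 RPKM at normal CO2. EXPA10 thus had a ratio of 2.76 (2.02 to 3.80), close to the 2.98 (2.26 to 3.96) of EXPA11 (AT1G20190), which was at 11.3 RPKM at low CO2 and 3.80 RPKM at normal CO2.

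EXPA6 (AT2G28950) lay just inside the 2-fold line, with 62.9 RPKM at low CO2 and 31.5 RPKM at normal CO2 and a ratio of 1.99 (1.80 to 2.21). On the log2(RPKM + 1) scale it stood at 0.97, and it passed 2-fold after median scaling (1.03) and after quantile normalization (1.07). EXPA13, EXPA3 and EXPA9 lay between 2.35 and 16.3 RPKM in both columns, with ratios of 1.61 (1.30 to 2.01), 1.61 (1.09 to 2.39) and 1.20 (1.01 to 1.42). Every one of these 4 genes had an interval above 1.

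A pair of abundant alpha-expansins had the opposite direction. EXPA16 (AT3G55500) was at 33.7 RPKM at low CO2 and 63.5 RPKM at normal CO2, where it was the most abundant expansin, and was 1.88-fold lower at low CO2 (1.70 to 2.08). EXPA4 (AT2G39700) was at 21.7 RPKM at low CO2 and 46.1 RPKM at normal CO2, or 2.12-fold lower (1.88 to 2.40). EXPA4 lay just outside the 2-fold line at -1.05 on the log2 scale and came inside it after median scaling (-0.997) and after quantile normalization (-0.95). EXPA16, at -0.89, was the next counted expansin inside it on the lower side.

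Beta-expansins and expansin-like genes were few and mostly low. EXPB3 (AT4G28250), the only counted beta-expansin among the members, was at 1.79 RPKM (31 reads) at low CO2 and 7.75 RPKM (156 reads) at normal CO2, and so 4.33-fold lower (2.93 to 6.59). EXLB1 (AT4G17030) was abundant in both columns, at 65.6 RPKM at low CO2 and 47.7 RPKM at normal CO2, a ratio of 1.38 (1.26 to 1.50). EXLA1 (AT3G45970) was at 14.2 RPKM at low CO2 and 16.9 RPKM at normal CO2, a ratio of 0.839 (0.710 to 0.991). EXLA2 (AT4G38400), at 2.59 RPKM at low CO2 and 1.04 RPKM at normal CO2, had a plain ratio of 2.49 (1.45 to 4.40) but 0.81 on the log2(RPKM + 1) scale.

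A further 10 expansins had a mean under 1 RPKM and were not counted. EXPA7 and EXPA18, which mark root hairs, were listed at 0 in both columns, as were EXPA17, known from lateral roots, and EXPA12. EXPA2 was listed at 0 at low CO2 and had 2 reads at normal CO2, both under a floor of 3 reads, so no fold is given. EXPA14, EXPA15, EXPA20, EXPB1 and EXLA3 had between 5 and 21 reads in each column, and of these only the interval of EXPA20 (1.02 to 5.09) left out 1.

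XTH genes are commonly sorted by sequence into groups I, II and III, which follow the gene numbers. In group I all 6 members were counted, 2 of them past 2-fold upward and 4 within it. XTH4 (AT2G06850), an enzyme with transglucosylase activity, was at 249 RPKM at low CO2 and 23.2 RPKM at normal CO2, a ratio of 10.7 (9.79 to 11.8). XTH8 (AT1G11545) was at 9.99 RPKM at low CO2 and 1.63 RPKM at normal CO2, a ratio of 6.11 (4.31 to 8.89). The other counted genes of the group lay at ratios between 0.686 and 1.11.

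XTH6 (AT5G65730), the second most abundant XTH gene at normal CO2, was at 84.4 RPKM at low CO2 and 121.7 RPKM at normal CO2, or 1.44-fold lower (1.35 to 1.53). XTH9 (AT4G03210) was at 53.5 RPKM at low CO2 and 48.0 RPKM at normal CO2, a ratio of 1.11 (1.02 to 1.22). XTH7 was 1.46-fold lower (1.24 to 1.72) and XTH5 had a ratio of 1.05 (0.824 to 1.33), both at 17.5 RPKM or less in either column. The order of XTH4 and XTH6 therefore differed between the columns: at low CO2 XTH4 ranked 2nd and XTH6 5th in the family, and at normal CO2 XTH4 ranked 6th and XTH6 2nd.

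Group II held the gene with the highest XTH level at normal CO2 and the touch-induced gene TCH4. XTH24 (AT4G30270), known as MERI5 from its expression in the shoot meristem, was at 121.8 RPKM at low CO2 and 429.6 RPKM at normal CO2, which made it 3.53-fold lower (3.36 to 3.70), from 2151 reads at low CO2 and 8816 at normal CO2. XTH22 (AT5G57560), the TCH4 gene of touch, heat, darkness and brassinosteroid responses, was at 229.8 RPKM at low CO2 and 35.7 RPKM at normal CO2, a ratio of 6.44 (5.96 to 6.96). XTH16 (AT3G23730) was at 24.9 RPKM at low CO2 and 3.42 RPKM at normal CO2, a ratio of 7.26 (5.69 to 9.38). The group thus held members several-fold different in each direction, and its summed RPKM was 384.8 at low CO2 and 479.3 at normal CO2.

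The remaining members of group II were low. XTH23 was at 2.24 RPKM at low CO2 and 5.27 RPKM at normal CO2, or 2.36-fold lower (1.64 to 3.44). XTH18 was at 1.03 RPKM at low CO2 and 2.32 RPKM at normal CO2, or 2.27-fold lower (1.31 to 4.07). Both lay within 2-fold on the log2(RPKM + 1) scale and beyond it with a pseudocount of 0.1. XTH25 had a ratio of 1.64 (1.11 to 2.45) at 3.49 RPKM at low CO2 and 2.12 RPKM at normal CO2. XTH15, a gene of the shade response, had 18 reads at low CO2 and 2 at normal CO2, a ratio of 10.5 (2.50 to 92.9), and was not counted because its mean was under 1 RPKM. XTH17 was listed at 0 in both columns and XTH19 had 12 reads at low CO2 and 17 at normal CO2, a ratio of 0.820 (0.357 to 1.82).

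Group III had 4 of its 6 members past 2-fold upward, 1 past it downward and 1 within it. XTH27 (AT2G01850, also EXGT-A3), known from the veins of rosette leaves, was the most abundant XTH gene at low CO2, at 341.9 RPKM, against 115.8 RPKM at normal CO2. Its ratio of 2.95 (2.83 to 3.08) rested on 7475 reads at low CO2 and 2941 at normal CO2. XTH28 (AT1G14720), which acts in stamen filament growth, was at 48.7 RPKM at low CO2 and 21.0 RPKM at normal CO2, a ratio of 2.32 (2.09 to 2.58).

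XTH30 (AT1G32170) and XTH33 (AT1G10550), of which XTH33 is predicted to be anchored in the membrane, had lower levels. XTH30 was at 7.37 RPKM at low CO2 and 2.37 RPKM at normal CO2, a ratio of 3.11 (2.31 to 4.23), and XTH33 at 5.99 RPKM at low CO2 and 1.18 RPKM at normal CO2, a ratio of 5.06 (3.34 to 7.93). The members of group III with a hydrolase-type sequence, XTH31 and XTH32, stood apart from these. XTH31 (AT3G44990), an enzyme known to cut xyloglucan and to act in the aluminium response, had 2 reads (0.104 RPKM) at low CO2 and 106 reads (4.74 RPKM) at normal CO2. It was 45.6-fold lower, with a wide interval of 12.3 to 382. The 2 reads lie under the floor of 3 reads, and XTH31 was counted only through its level at normal CO2. XTH32 was at 5.65 RPKM at low CO2 and 5.52 RPKM at normal CO2, a ratio of 1.02 (0.723 to 1.44).

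**Figure D2:**
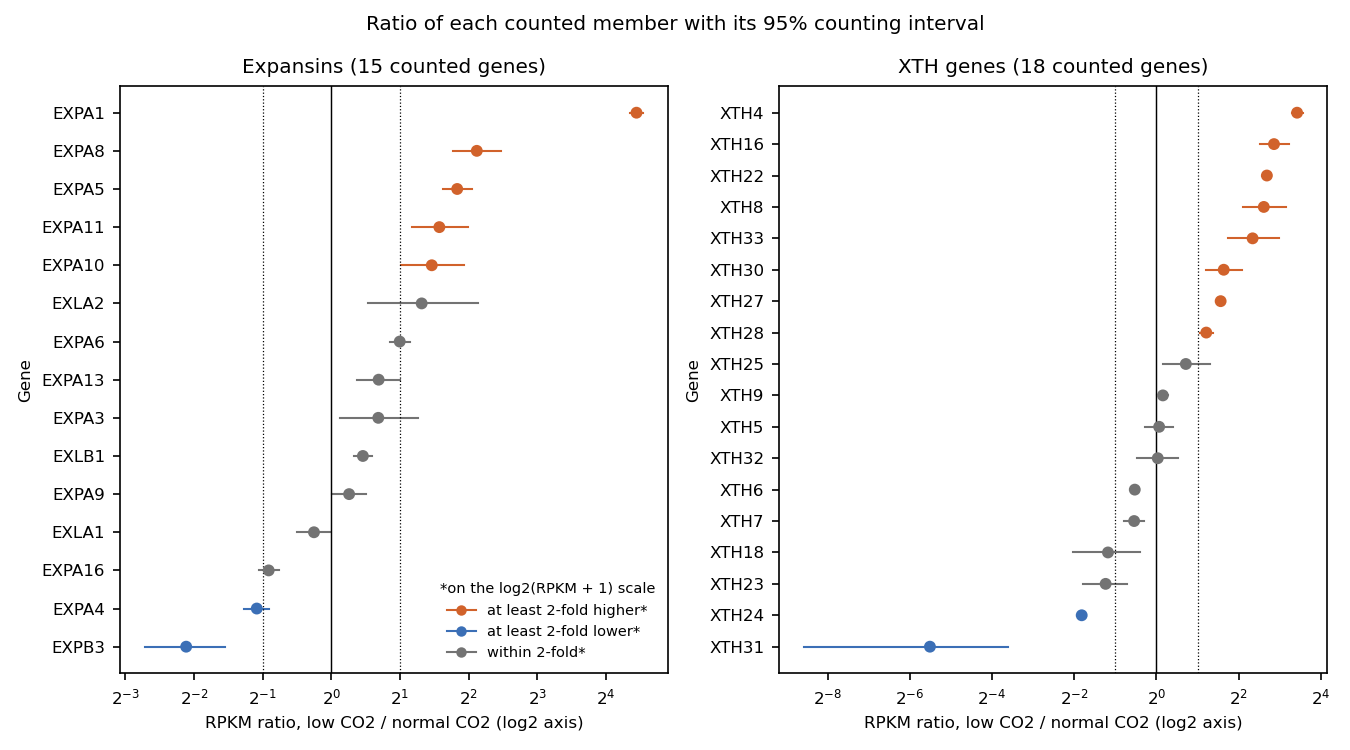
RPKM ratio of low over normal CO2 for the 33 counted members on a log2 axis, with lines for the 95% counting interval and dotted lines at 2-fold; the ranges of the axes differ between the panels. Colours give the call on the log2(RPKM + 1) scale: orange at least 2-fold higher, blue at least 2-fold lower, grey within. EXPA1 (21.8) and XTH4 (10.7) lie farthest to the right, and XTH31 (0.0219) farthest to the left.

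Summed over the family, the expansins reached 1390.4 RPKM at low CO2 and 313.7 RPKM at normal CO2, a ratio of 4.43. Most of that difference was EXPA1: without it the sums were 323.5 RPKM at low CO2 and 264.8 RPKM at normal CO2, a ratio of 1.22. EXPA1 took 76.7% of the summed expansin RPKM at low CO2 and 15.6% at normal CO2. At normal CO2 the sum was spread more evenly, with EXPA16 at 20.2%, EXLB1 at 15.2%, EXPA4 at 14.7% and EXPA6 at 10.05%. To reach 90% of the sum took 5 genes at low CO2 and 9 at normal CO2.

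The XTH genes summed to 1210.2 RPKM at low CO2 and 848.7 RPKM at normal CO2, a ratio of 1.43. XTH24 took 10.1% of the sum at low CO2 and 50.6% at normal CO2, and without it the sums were 1088.4 RPKM at low CO2 and 419.1 RPKM at normal CO2, a ratio of 2.60. Without XTH27 the ratio of the sums was 1.18, and without XTH4 it was 1.16. XTH27 took 28.2% at low CO2 and 13.6% at normal CO2. XTH4 took 20.6% at low CO2 and 2.73% at normal CO2, and XTH22 took 19.0% at low CO2 and 4.20% at normal CO2. The sum was thus led by XTH27, XTH4 and XTH22 at low CO2 and by XTH24, XTH6 and XTH27 at normal CO2. By group, the summed ratio was 1.90 in group I, 0.803 in group II and 2.72 in group III. XTH4 held 248.7 of the 415.7 RPKM of group I at low CO2 and 23.2 of 218.8 at normal CO2. In group II XTH24 held 121.8 of 384.8 RPKM at low CO2 and 429.6 of 479.3 at normal CO2. For group III, XTH27 held 341.9 of 409.6 RPKM at low CO2 and 115.8 of 150.6 at normal CO2. Each group ratio thus leaned on 1 gene, and group sums without that gene were not taken.

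**Figure D3:**
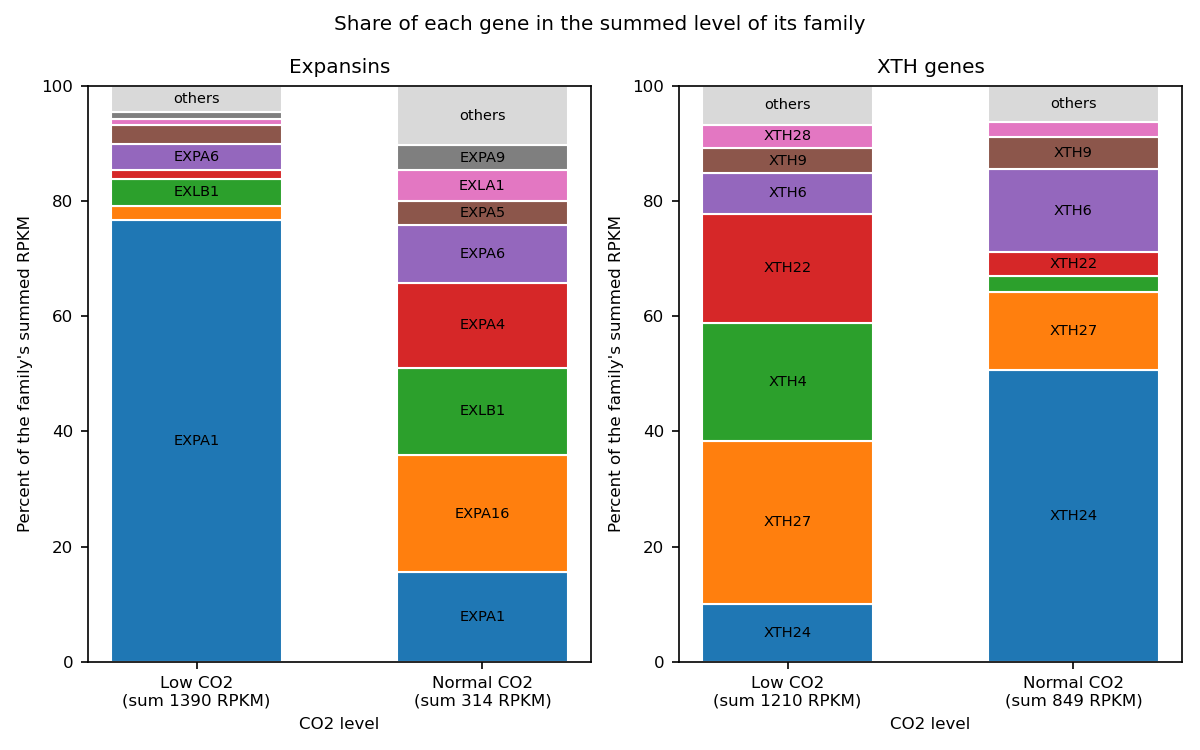
Share of each gene in the summed RPKM of its family, in percent, at low CO2 (left bar) and at normal CO2 (right bar), for expansins and for XTH genes. Coloured bands are genes with at least 4% in either column, labelled where the band itself reaches 4%, and grey holds the others. EXPA1 fills 76.7% of the expansin bar at low CO2 and 15.6% at normal CO2, and XTH24 fills 10.1% of the XTH bar at low CO2 and 50.6% at normal CO2.

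Members abundant in leaf, with a mean of 20 RPKM or more, were 13 genes, of which 6 passed 2-fold upward, 2 passed it downward and 5 did not pass. The 6 expansins among them were EXPA1, EXPA4, EXPA5, EXPA6, EXPA16 and EXLB1, with 2 higher and 1 lower. The mean was taken over both columns, and EXPA5 reached it only through its 46.3 RPKM at low CO2, against 13.0 RPKM at normal CO2. The 7 XTH genes were XTH4, XTH6, XTH9, XTH22, XTH24, XTH27 and XTH28, with 4 higher and 1 lower. Of the 20 members with a mean between 1 and 20 RPKM, 7 were higher, 2 lower and 11 within 2-fold. Over all counted genes, those at or above 20 RPKM passed 2-fold upward in 6.88% of cases and downward in 10.6%, and those between 1 and 20 RPKM upward in 5.29% and downward in 11.6%.

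With the stricter call that the whole counting interval lie beyond 2-fold, 13 members were higher and 3 lower, against 5.05% and 9.52% of the 16095 counted genes with recovered reads. EXPA4 was the member that lost its call. In the RefSeq coding sequences of TAIR10.1, words of 50 bases occurring in another gene made up at most 2.68% of any member's coding sequence, and were found in 5 members (XTH17, XTH18, XTH19, EXLA1 and EXLA3). The longest coding model of each member was searched, which for some, such as XTH32, was not the model behind the read numbers. For 6 members (EXPA2, EXPA7, EXPA18, EXPA20, EXLA1 and XTH15) the annotated span of the whole gene overlaps that of another gene. Whether their coding sequences overlap, and so whether any reads could be shared, was not checked. EXPA7 and EXPA18 were listed at 0 in both columns.

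Some XTH genes sit side by side with no other protein-coding gene between them, and some of these neighbours had very different levels. XTH24, XTH18 and XTH19 form a run of 3, with 121.8, 1.03 and 0.660 RPKM at low CO2 and 429.6, 2.32 and 0.804 RPKM at normal CO2. The plain ratios in this run were 0.283 for XTH24, 0.441 (0.246 to 0.762) for XTH18 and 0.820 for XTH19. XTH25 and XTH22 are also adjacent, next to XTH13, which was listed at 0 in both columns. There XTH22 was 6.44-fold higher and XTH25 1.64-fold higher, with levels of 229.8 and 3.49 RPKM at low CO2.

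Genes of both families outside the 46 were mostly listed at 0. Of 22 such genes found in the files, 16 were at 0 in both columns and 2 were counted. XTH10 (AT2G14620), a group I gene, was at 0.611 RPKM (12 reads) at low CO2 and 7.37 RPKM (168 reads) at normal CO2, which made it 12.1-fold lower (6.72 to 23.8). It was counted only through its level at normal CO2. XTH11, the other counted gene, had a ratio of 0.894 (0.473 to 1.66).

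None of the 8 genes of xyloglucan synthesis reached 2-fold in either direction, where 17.1% of all counted genes did so, and their median log2 ratio was -0.08. The largest difference was that of the galactosyltransferase gene MUR3, at 12.6 RPKM at low CO2 and 17.2 RPKM at normal CO2. The xylosyltransferase gene XXT2 was at 41.9 RPKM at low CO2 and 50.7 RPKM at normal CO2, and its relative XXT1 at 14.2 RPKM at low CO2 and 12.3 RPKM at normal CO2. The 8 genes of primary wall cellulose synthesis also lay within 2-fold, with a median of 0.31. The cellulose synthase genes CESA5 and CESA2 were 1.68-fold (1.60 to 1.76) and 1.48-fold lower (1.41 to 1.56), whereas CSI1, which links the synthase complex to microtubules, had a ratio of 1.59 (1.53 to 1.65).

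Of 2 counted genes for enzymes that trim xyloglucan and 5 for pumps that acidify the wall, 1 each passed 2-fold upward, as 6.07% of all counted genes did. AXY8, a fucosidase that acts on xyloglucan, was at 34.3 RPKM at low CO2 and 9.80 RPKM at normal CO2, a ratio of 3.50 (3.20 to 3.83). XYL1, the xylosidase, was at 27.4 RPKM at low CO2 and 16.9 RPKM at normal CO2, a ratio of 1.62 (1.50 to 1.75). BGAL10 was looked up and not found among the listed genes. Among the plasma membrane proton pump genes AHA2 was 2.33-fold higher (2.25 to 2.41), at 150.2 RPKM at low CO2 and 64.4 RPKM at normal CO2. AHA5 had a ratio of 1.63 (1.48 to 1.79) and AHA1, the most abundant, 1.16 (1.14 to 1.18).

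TCH4 did not run with the other touch genes. The calmodulin gene TCH1 and the calmodulin-like genes TCH2 and TCH3 had ratios of 0.897 (0.847 to 0.949), 0.708 (0.641 to 0.782) and 0.622 (0.612 to 0.632), against 6.44 for XTH22. TCH3 was at 1850.0 RPKM at low CO2 and 2975.4 RPKM at normal CO2.

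**Figure D4:**
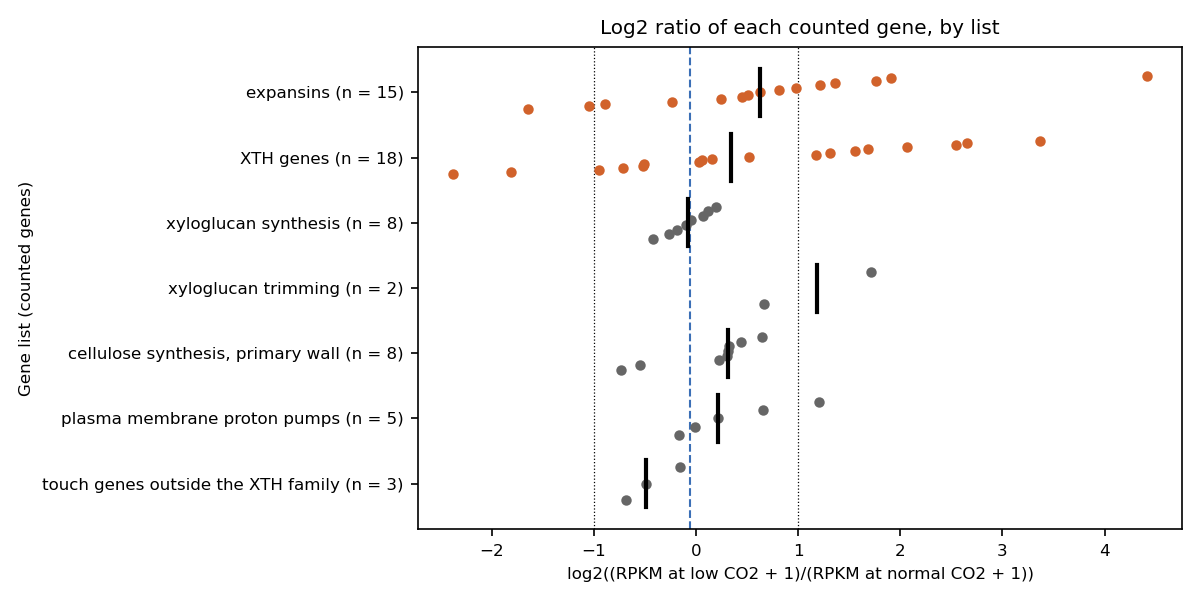
Log2 ratio of low over normal CO2 on the RPKM + 1 scale for each counted gene of the families (orange) and of related wall and touch lists (grey). Black bars are list medians, the dashed line is the median of all counted genes (-0.06) and dotted lines mark 2-fold. The members spread from -2.38 to 4.42, and the genes of xyloglucan synthesis from -0.43 to 0.19.

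Markers of leaf cell types were present in both columns, and root hair markers were not. The mesophyll markers RBCS1A, RCA, LHCB2.1 and CA1 summed to 36415.9 RPKM at low CO2 and 19383.2 RPKM at normal CO2, a sum carried by RBCS1A. RBCS1A, with a ratio of 2.39 (2.37 to 2.40), and CA1, with 8.60 (8.39 to 8.82), passed 2-fold upward, as 6.07% of all counted genes did. RCA had a ratio of 1.10 and LHCB2.1 0.929 (0.916 to 0.942). The 4 guard cell markers summed to 116.3 RPKM at low CO2 and 82.8 RPKM at normal CO2. Among them FAMA had a ratio of 1.10 (0.991 to 1.22), KAT1 1.05 (0.963 to 1.16) and MYB60 1.66 (1.48 to 1.88). HT1 had a ratio of 2.06, without an interval because its reads were not recovered. The 3 epidermis markers summed to 146.5 RPKM at low CO2 and 111.0 RPKM at normal CO2. Of the epidermis markers FDH, which carried the sum, had a ratio of 1.41 (1.35 to 1.48), ATML1 0.832 (0.763 to 0.907) and PDF1, at 3.63 RPKM at low CO2 and 1.03 RPKM at normal CO2, 3.53 (2.20 to 5.86). The 3 markers of dividing cells, at most 2.24 RPKM each, summed to 4.42 RPKM at low CO2 and 2.65 RPKM at normal CO2. The sum of 2 phloem markers had a ratio of 0.864, with SUC2 at 0.851 and APL at 1.06. The sum of 4 xylem markers had a ratio of 1.15, with XCP1 at 1.31, CESA4 at 1.03, CESA7 at 0.911 and CESA8 at 1.06. All 3 root hair markers were listed at 0 in both columns. The part of these cell types in the values of the wall-loosening genes was not tested.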

How the data were processed

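Total RNA was isolated from whole leaves with a column kit and made into TruSeq libraries, per the labels' protocols. FastQC, TopHat and Cufflinks are named in the submitters' processing notes. How reads were counted, with which build, annotation and strand setting, and whether replicates were pooled is not given in the sources used here. RPKM values in 1 column per CO2 level were deposited by the authors, and each column stands for its group without SD or n.

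From the RPKM values, read numbers were worked back with the RefSeq TAIR10.1 coding lengths less the 3 bases of the stop codon. For a gene with coding models of several lengths, the longest that gave whole reads in both columns was used. Reads came out whole to within 0.0001 for 20247 of 21010 genes above 0 (96.4%), and for 1.47% when the stop codon was kept. A floor of 3 reads on 1 kb is 0.137 RPKM at low CO2 and 0.118 RPKM at normal CO2. Intervals and floors cover counting error only.

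The log2 difference of a gene is log2(RPKM + 1) at low CO2 less the same at normal CO2. It was taken for genes whose mean reached 1 RPKM and called at 2-fold, and named genes also have plain RPKM ratios. The computations were made in Python 3.11.15 with scipy 1.17.1 and were tested on simulated data. The limma test planned for replicate columns could not be run, because no such columns are given.

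The members and lists were chosen with earlier results of these data known. Named in full were members past 2-fold or reaching 20 RPKM in either column, with the others given more briefly, and up to 3 genes of each related list by size of difference. XTH groups and the runs of neighbours were added after the values were seen. All 46 loci matched RefSeq, whose symbols or synonyms hold every name used. Since no build is named, coordinates and sequences are left out.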

Additional observations from a re-analysis of the deposited data

How the results depend on the processing

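With 1 column per CO2 level, no interval here covers the spread between plants, and a difference can be no firmer than those columns. No paired analysis was possible because the columns carry no replicate numbers, and leaving out each replicate was not run for the same reason.

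Main counts were 5 expansins higher and 2 lower, and 8 XTH genes higher and 2 lower, beside 6.07% and 11.1% of all counted genes. These shares of all counted genes moved with the setting. They were 4.07% and 7.09% with a pseudocount of 5, and 7.26% and 12.7% with a pseudocount of 0.1. Without a filter they were 4.88% and 9.08%, and with a minimum mean of 5 RPKM 6.28% and 10.6%. After median scaling they were 6.71% and 10.2%, and after quantile normalization 7.27% and 9.64%. With a pseudocount of 5, 3 expansins were higher and 0 lower, 6 XTH genes were higher and 1 lower, and 1175 of all genes (main count 1834) were lower. The members that lost their call were EXPA4, EXPA10, EXPA11, EXPB3, XTH30, XTH31 and XTH33, and the larger pseudocount shrinks the log2 ratio of low genes by construction. The minimum of 5 RPKM also left 6 higher XTH genes. A pseudocount of 0.1 gave 4 lower XTH genes, with XTH18 and XTH23 added, and 6 higher expansins, with EXLA2 added. Median scaling and quantile normalization also gave 6 higher expansins, with EXPA6 added. Expansins lower numbered 1 with a minimum mean of 5 RPKM, median scaling, quantile normalization or the whole counting interval (chosen after the data were seen), and XTH genes lower numbered 1 with the minimum of 5 RPKM, which leaves out XTH31 and also XTH10 of the outside family genes (0 lower).

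The expansin median of 0.62 was 0.68 with a pseudocount of 0.1 and with median scaling, 0.42 with a pseudocount of 5, 0.45 without a filter, 0.80 with the minimum of 5 RPKM and 0.74 after quantile normalization. The XTH median of 0.34 was 0.42, 0.39, 0.20, 0.66 and 0.48 under a pseudocount of 0.1, median scaling, a pseudocount of 5, the minimum of 5 RPKM and quantile normalization. The summed expansin ratio of 4.43 was 4.60 with the minimum of 5 RPKM, 4.56 after quantile normalization and 1.22 without EXPA1. The summed XTH ratio of 1.43 was 1.47 after quantile normalization and 2.60 without XTH24. No family median changed direction under these alternatives, and no sum did under those that act on it. The pseudocounts, median scaling and leaving out the filter keep the sums the same by construction.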
